A study of Mus musculus with 9 samples.

Results

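The data are described here for 10 genes of caveolin, clathrin and flotillin endocytosis in RAW 264.7 cells, a mouse macrophage-like cell line. The genes are Cav1, Cav2, Cltc, Clta, Cltb, Dnm2, Dab2, Flot1, Flot2 and Ehd1, chosen by symbol; the rule uses no measured value, but the set was drawn up with earlier results of these data known. All 10 were found among the 54432 gene identifiers of the count table, and 9 of them entered the test with 12637 genes in all. The study asked how macrophages take up and process emulsion particles of the size of triglyceride-rich lipoproteins. Untreated cells (CTRL) were compared with cells exposed for 6 hours to 1 mM VLDL-sized emulsion particles (VLDLsep) or to 1 mM chylomicron-sized emulsion particles (CHYLsep), with 3 RNA-sequencing libraries per group and 9 in all. All groups were grown in DMEM with 10% fetal bovine serum and 1% penicillin/streptomycin. Both emulsions were sunflower oil with sodium caseinate as the emulsifier, and the design has no group that received caseinate without oil. Each library pooled the samples of 1 condition from 1 experiment, and all of them come from 1 cell line.

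Caveolae are flask-shaped pits of the plasma membrane that are built from caveolins and cavins, and caveolin-2 is known to rely on caveolin-1 to reach the cell surface. Clathrin-coated pits use a lattice of heavy and light chains, adaptors that pick up cargo, and dynamin to cut the vesicle from the membrane. Flotillins form membrane domains of their own, and EHD proteins reshape membranes at caveola necks and on recycling endosomes. RAW 264.7 cells in particular are a transformed line, and values for primary macrophages were not analysed here.

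The libraries held between 22393893 and 22856792 estimated counts. Levels are given as counts per 1000000 counts (cpm) after TMM normalization, a scaling that sets the bulk of the genes equal between libraries. Without this scaling, 3 counts in a library correspond to 0.131 to 0.134 cpm. Replicate 3 of every group lay apart from replicates 1 and 2 on the second principal component, which held 14.4% of the variance. The 8 macrophage markers summed to 6625 to 6741 cpm in CTRL, to 5948 to 6133 cpm in VLDLsep and to 6106 to 6277 cpm in CHYLsep. Of them, 5 fell with VLDLsep and 3 with CHYLsep, where 17.9% and 13.0% of all genes fell. The largest falls with VLDLsep were those of Fcgr1 (log2 fold change -0.83) and Cd14 (-0.54), and 1 marker (Cd68) was higher in VLDLsep. The part of these markers in the results below was not tested. The markers of other cell types were low in all libraries: fibroblast markers summed to 1.54 to 2.61 cpm, endothelial markers to 6.26 to 9.80 cpm, and adipocyte markers to at most 0.0913 cpm. Col3a1, Dcn, Tek, Emcn and Adipoq had no count. Others of these lists were counted and entered the test. Vwf stood at 4.29 to 8.28 cpm, Pdgfra at 1.33 to 2.44 cpm, Cdh5 at 0.502 to 1.22 cpm and Pecam1 at 0.126 to 0.772 cpm. In bulk RNA of this kind, fewer cells that use a gene and less RNA per cell cannot be told apart.

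Relative to CTRL, 5 of the 9 tested genes changed with VLDLsep: Ehd1, Cltc and Flot1 rose, and Dab2 and Clta fell. Of all 12637 genes tested, 35.6% passed the same test (17.8% higher and 17.9% lower). With CHYLsep 4 of the 9 changed, namely Ehd1, Cltc and Flot1 upwards and Dab2 downwards, against 25.7% of all genes (12.7% higher and 13.0% lower). Cav2, Cltb, Dnm2 and Flot2 passed the test in neither comparison. Dab2 and Ehd1 passed with an absolute log2 fold change of at least 0.5 in both comparisons, 2 of 9 members where 14.6% and 9.56% of all genes did. The libraries of Dab2, Ehd1, Cltc, Clta and Flot1 did not overlap with CTRL for either particle, as was the case for 47.4% of all genes with VLDLsep and 41.7% with CHYLsep. The test was limma-voom with Benjamini-Hochberg adjustment over all genes tested, a gene counted as changed at an adjusted p below 0.05, and both comparisons share the CTRL libraries.

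**Figure D1:**
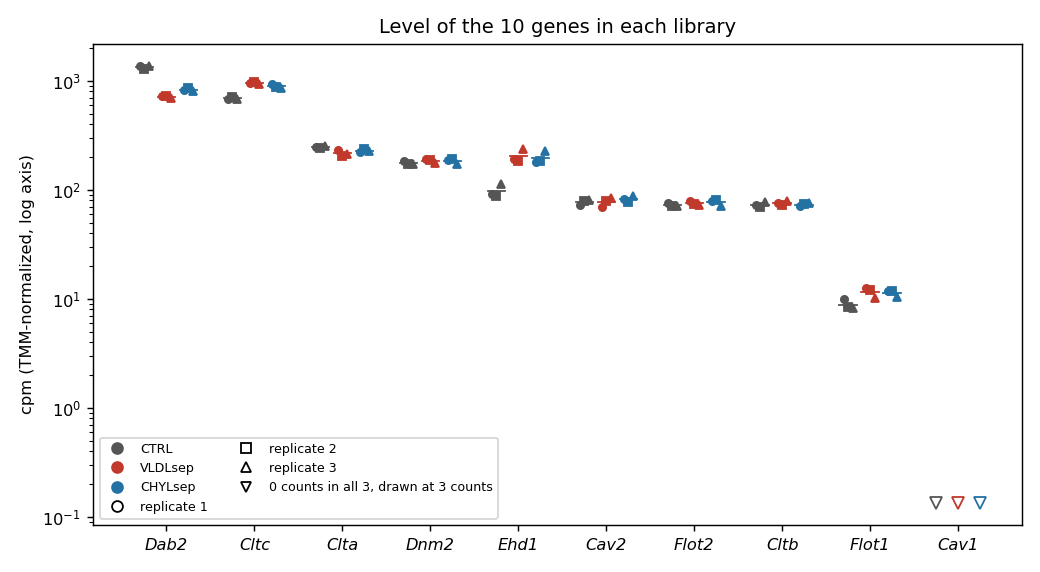
Level of each of the 10 genes in every library in cpm on a log axis, with colour for the group, marker shape for the replicate number and a line for the group mean. Dab2 sits lower and Cltc and Ehd1 higher in all particle-treated libraries. Cav1, with 0 counts, is drawn at the highest value of 3 counts without TMM scaling.

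The caveolins were the first question, since uptake through caveolae was the route under study. Cav1 (ENSMUSG00000007655), which encodes the main structural protein of caveolae, had 0 counts in all 9 libraries. A count of 0 allows a level of up to 0.131 to 0.134 cpm per library without TMM scaling, a limit that covers counting error only. Among the 21809 protein-coding genes of the table, 25.3% likewise had no count in any library. Cav2 (ENSMUSG00000000058), which encodes the partner caveolin, was by contrast readily counted. Its level was 73.4, 79.7 and 80.1 cpm in the CTRL libraries, 69.1, 79.9 and 84.5 cpm with VLDLsep, and 82.9, 77.4 and 88.2 cpm with CHYLsep. The groups overlapped throughout. Per library, Cav2 had 1515 to 1933 counts, against a Cav1 limit of 3 counts.

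The Cav2 level was 77.7 ± 3.75 cpm in CTRL, 77.9 ± 7.90 cpm with VLDLsep and 82.8 ± 5.39 cpm with CHYLsep (SD, n = 3 each). Its log2 fold change was -0.0017 with VLDLsep (95% interval -0.177 to 0.173, limma-voom adjusted p = 0.99) and 0.09 with CHYLsep (-0.084 to 0.264, adjusted p = 0.448). A change of Cav2 outside 0.885-fold to 1.13-fold with VLDLsep thus lies beyond the 95% interval. Smaller ones lie within it and cannot be told from no change at this replicate number.

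Cav1 and Cav2 are neighbours on mouse chromosome 6 and are transcribed in the same direction. In GENCODE M21 on GRCm38, Cav2 spans chr6:17281185-17289115 and Cav1 spans chr6:17306335-17341452, both on the plus strand, with 17220 bases between the end of Cav2 and the start of Cav1. The 250 bases before each start are shown because 1 neighbour was counted in every library and the other in none. RefSeq held promoter entries for 8 of the 10 genes, with none for Flot1 and Ehd1. The sequences are from RefSeq on GRCm38.p6, plus strand, 5′ to 3′, and capitals mark a GC box (GGGCGG) or a CCAAT box (CCAAT) on either strand.
Cav2, chr6:17280935-17281184: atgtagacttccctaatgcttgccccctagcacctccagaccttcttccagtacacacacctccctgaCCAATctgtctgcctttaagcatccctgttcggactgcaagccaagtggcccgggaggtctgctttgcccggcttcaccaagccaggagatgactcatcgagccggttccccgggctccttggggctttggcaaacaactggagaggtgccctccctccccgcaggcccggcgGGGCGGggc
Cav1, chr6:17306085-17306334: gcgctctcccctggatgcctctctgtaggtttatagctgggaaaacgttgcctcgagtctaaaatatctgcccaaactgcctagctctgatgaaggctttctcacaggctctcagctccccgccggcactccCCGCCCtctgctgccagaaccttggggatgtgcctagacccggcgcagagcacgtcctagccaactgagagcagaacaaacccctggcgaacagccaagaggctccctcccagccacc

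Each window held 10 CpG dinucleotides, where the median over 32851 promoters of the same length was 6. The Cav1 window had 1 GC box whose first base lay 118 bases before the start, and the Cav2 window had 1 GC box 9 bases and 1 CCAAT box 182 bases before the start. Of all promoters, 32.7% held a GC box and 33.8% a CCAAT box. These letters therefore describe the windows, and a match is no evidence of a bound factor. RefSeq lists a further Cav1 start, whose window had 12 CpG dinucleotides and neither motif. Gene-level counts do not show which start was used.

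The other proteins of the caveola coat and neck were measured as well, from a list of 9 genes. Cavin1, the coat protein that caveolae need to form, had 0 to 4 counts per library, and Cavin2 had 0 to 1. Cavin3, Cavin4 and the muscle caveolin Cav3 had no count, and Pacsin1 and Pacsin3 stayed at 6 counts or fewer. Only Ehd2 and Pacsin2 entered the test. Ehd2, the ATPase that sits at the caveola neck, was counted 13, 14 and 17 times in CTRL, 8, 9 and 3 times with VLDLsep, and 7, 10 and 8 times with CHYLsep. Only its CTRL libraries were above the 10 counts of the filter, so Ehd2 entered the test through the group where it was highest. Its log2 fold change of -1.10 with VLDLsep (limma-voom adjusted p = 0.043) is therefore no independent evidence of a fall. This call, at the edge of the count range, was lost in 13 of the 17 alternative settings that kept the gene. The value was -0.65 without VLDLsep replicate 3 and -0.53 without replicate 3 of every group. Pacsin2, a membrane-bending F-BAR protein that is not limited to caveolae, rose by 0.20 with VLDLsep (adjusted p = 0.039, lost in 8 of 18 alternatives, with a value of 0.13 without VLDLsep replicate 3) and had a log2 fold change of 0.19 with CHYLsep (adjusted p = 0.0556, and 0.00405 with the replicate block, a term for the replicate number in the fit).

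The clathrin lattice is built from a heavy chain, Cltc, and the light chains Clta and Cltb. The heavy chain rose and the light chain Clta fell with VLDLsep. Cltc (ENSMUSG00000047126) stood at 686, 716 and 685 cpm in CTRL, at 954, 974 and 944 cpm with VLDLsep, and at 934, 887 and 861 cpm with CHYLsep. All particle-treated libraries lay above all CTRL libraries. The means were 696 ± 17.4, 957 ± 15.4 and 894 ± 37.0 cpm (SD, n = 3 each). Cltc rose by 0.46 ± 0.046 on the log2 scale with VLDLsep (SE, limma-voom adjusted p = 3.25e-05), that is 1.38-fold, and by 0.36 ± 0.046 with CHYLsep (adjusted p = 2.68e-04), or 1.29-fold.

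Clta (ENSMUSG00000028478), the more abundant light chain here, was at 248, 243 and 250 cpm in CTRL, 234, 203 and 214 cpm with VLDLsep, and 223, 236 and 229 cpm with CHYLsep. Each particle group lay below CTRL without overlap, although the gap was small beside the spread of the VLDLsep libraries. Clta fell by 0.19 ± 0.056 on the log2 scale with VLDLsep (SE, limma-voom adjusted p = 0.0215). This call was lost without CTRL replicate 1 (adjusted p = 0.0654), VLDLsep replicate 2 (0.0897) or VLDLsep replicate 3 (0.0511). With CHYLsep the log2 fold change was -0.11 (95% interval -0.231 to 0.0145, adjusted p = 0.184), which became -0.19 (adjusted p = 0.0249) with scaling by library size alone.

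Cltb (ENSMUSG00000047547), the other light chain, had overlapping levels of 69.3 to 77.2 cpm in CTRL, 73.0 to 78.4 cpm with VLDLsep and 70.6 to 75.2 cpm with CHYLsep. Its log2 fold change was 0.061 with VLDLsep (95% interval -0.0625 to 0.184, limma-voom adjusted p = 0.436) and 0.009 with CHYLsep (-0.115 to 0.133, adjusted p = 0.932). The upper ends of both intervals lay below the Cltc change in the same comparison.

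The balance of the coat genes was next expressed as ratios within each library, which do not depend on the scaling between libraries. The heavy chain to light chain ratio, Cltc over the sum of Clta and Cltb, was 2.14, 2.29 and 2.09 in CTRL, 3.07, 3.53 and 3.23 with VLDLsep, and 3.18, 2.87 and 2.83 with CHYLsep. It was thus 1.51-fold higher with VLDLsep and 1.36-fold higher with CHYLsep, with all libraries of both groups above CTRL. The Cltb to Clta ratio was 0.290, 0.286 and 0.309 in CTRL and 0.327, 0.360 and 0.366 with VLDLsep, 1.19-fold higher, with 0.316, 0.314 and 0.329 for CHYLsep, 1.09-fold higher. Each of these differences had a 2-sided exact permutation p of 0.1, the smallest that 3 against 3 libraries allow, so none could pass 0.05 before or after adjustment. The counts were not divided by gene length, so the ratios show relative change and not the molar composition of the lattice. The heavy to light chain ratio was added after the values had been seen.

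**Figure D2:**
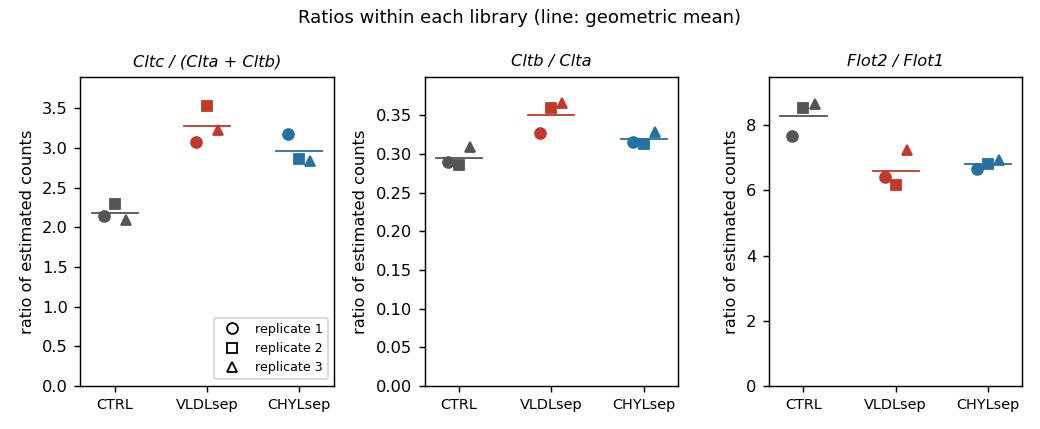
Ratio of estimated counts of Cltc to Clta plus Cltb, of Cltb to Clta and of Flot2 to Flot1 in each library, on linear axes from 0, with a line at the geometric mean of each group. The heavy to light chain ratio lies between 2.09 and 2.29 in CTRL and at 2.83 or above in all particle-treated libraries, and Flot2 to Flot1 is lower in both particle groups.

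Dab2 (ENSMUSG00000022150), an endocytic adaptor that recruits receptors of the low-density lipoprotein receptor family to clathrin-coated pits, showed the largest fall of the 9 genes in both comparisons. Its level was 1359, 1299 and 1374 cpm in CTRL, 729, 721 and 699 cpm with VLDLsep, and 820, 860 and 803 cpm with CHYLsep. The 3 groups did not overlap, and VLDLsep was lowest. The means were 1344 ± 39.6, 716 ± 15.5 and 828 ± 29.5 cpm (SD, n = 3 each). Dab2 fell by 0.91 ± 0.046 on the log2 scale with VLDLsep, to 0.533-fold (SE, 95% interval 0.497 to 0.572, limma-voom adjusted p = 3.29e-07). With CHYLsep it fell by 0.70 ± 0.046, to 0.616-fold (0.574 to 0.661, adjusted p = 3.16e-06). The genes whose profile over the 9 libraries was most like that of Dab2, by the root mean square difference of centred log2 cpm, were Rassf5 (0.036), Gdpd5 (0.042) and Nbeal2 (0.049).

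Dnm2 (ENSMUSG00000033335), the GTPase that severs clathrin-coated vesicles and caveolae from the membrane, had levels of 174 to 183 cpm in CTRL, 177 to 192 cpm with VLDLsep and 172 to 194 cpm with CHYLsep. The groups overlapped. Its log2 fold change was 0.068 with VLDLsep (95% interval -0.0567 to 0.193, limma-voom adjusted p = 0.386) and 0.059 with CHYLsep (-0.0657 to 0.184, adjusted p = 0.492). Changes of more than 1.14-fold lay outside both intervals. Scaling by library size alone turned the sign of both values without a call.

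The flotillins Flot1 and Flot2 encode scaffold proteins that form hetero-oligomers. Flot1 (ENSMUSG00000059714) was counted less often than any other tested gene of the set, at 9.92, 8.39 and 8.27 cpm in CTRL, 12.5, 12.1 and 10.1 cpm with VLDLsep, and 11.8, 11.8 and 10.4 cpm with CHYLsep. The lowest particle-treated library lay just above the highest CTRL library. Flot1 rose by 0.38 ± 0.116 on the log2 scale with VLDLsep (SE, limma-voom adjusted p = 0.0258) and by 0.36 ± 0.116 with CHYLsep (adjusted p = 0.0458). The calls were lost in 6 and in 8 of 18 alternatives, among them the scaling by library size (adjusted p = 0.0941 and 0.13), and became firmer with the replicate block (adjusted p = 0.00223 and 0.0049).

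Flot2 (ENSMUSG00000061981) had overlapping levels of 71.6 to 76.1 cpm in CTRL, 73.1 to 79.8 cpm with VLDLsep and 71.9 to 80.2 cpm with CHYLsep. Its log2 fold change was 0.055 with VLDLsep (95% interval -0.0755 to 0.185, limma-voom adjusted p = 0.509) and 0.073 with CHYLsep (-0.0574 to 0.203, adjusted p = 0.408). The ratio of Flot2 to Flot1 was 7.67, 8.54 and 8.65 in CTRL, 6.41, 6.17 and 7.24 with VLDLsep, and 6.65, 6.81 and 6.94 with CHYLsep. It was 0.797-fold with VLDLsep and 0.822-fold with CHYLsep relative to CTRL, with no overlap and a 2-sided exact permutation p of 0.1 each, the smallest possible.

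**Figure D3:**
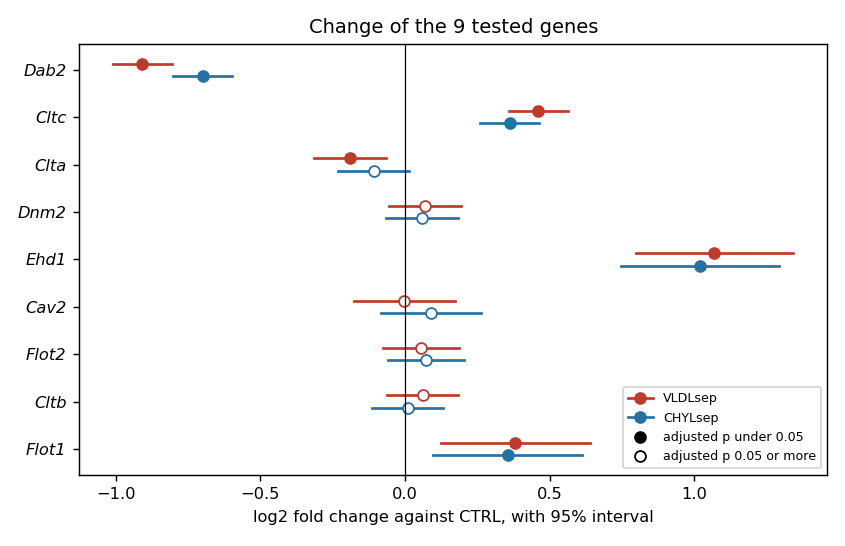
Log2 fold change against CTRL of the 9 tested genes for VLDLsep and CHYLsep, with bars for the 95% interval of the limma-voom fit and filled points for an adjusted p below 0.05. Dab2 lies at -0.91 and -0.70 and Ehd1 at 1.07 and 1.02, whereas the intervals of Cav2, Cltb, Dnm2 and Flot2 cross 0 for both particles.

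Ehd1 (ENSMUSG00000024772), an ATPase that shapes the tubules through which receptors return from recycling endosomes to the cell surface, showed the largest rise of the 9 genes. It was at 91.0, 88.3 and 113 cpm in CTRL, 193, 185 and 236 cpm with VLDLsep, and 182, 183 and 228 cpm with CHYLsep. Replicate 3 was the highest in each group, yet its particle-treated to CTRL ratio was like that of the others: the ratios within replicates 1, 2 and 3 were 2.12, 2.10 and 2.08 with VLDLsep and 2.00, 2.07 and 2.02 with CHYLsep. The means were 97.4 ± 13.6, 204 ± 27.2 and 198 ± 26.3 cpm (SD, n = 3 each). Ehd1 rose by 1.07 ± 0.123 on the log2 scale with VLDLsep (SE, 2.10-fold, 95% interval 1.74 to 2.54, limma-voom adjusted p = 8.63e-05) and by 1.02 ± 0.123 with CHYLsep (2.03-fold, 1.68 to 2.45, adjusted p = 1.94e-04). The genes with the most similar profile over the 9 libraries were Zwint (0.054), Tma16 (0.062) and Htatip2 (0.065), by the same measure as for Dab2.

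The EHD family did not move as 1 group. Ehd4, a close relative of Ehd1 on endosomes, fell from 184.2 cpm in CTRL to 107.4 cpm with VLDLsep and 125.6 cpm with CHYLsep. The log2 fold changes were -0.78 (limma-voom adjusted p = 6.06e-06) and -0.56 (adjusted p = 9.34e-05). The ratio of Ehd1 to Ehd4, chosen after the values were seen, was 0.493, 0.483 and 0.611 in CTRL, 1.75, 1.69 and 2.29 with VLDLsep, and 1.39, 1.39 and 2.00 with CHYLsep. Ehd1 thus went from the lower to the higher count of the pair in all particle-treated libraries. Ehd3 had no count.

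**Figure D4:**
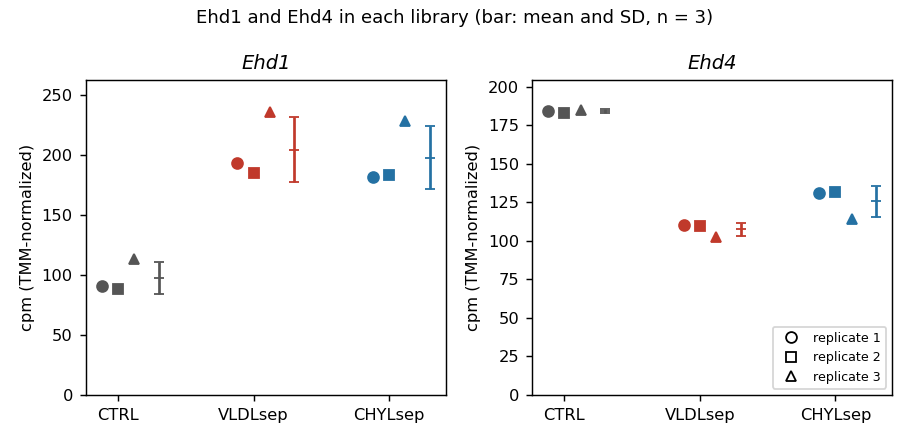
Levels of Ehd1 and Ehd4 in each library in cpm on linear axes from 0, with marker shape for the replicate number and bars for mean and SD (n = 3). Ehd1 rises from 88.3 to 113 cpm in CTRL to at least 182 cpm in the particle-treated libraries, and Ehd4 falls in the same libraries.

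VLDLsep and CHYLsep, the same oil in particles of different size, were then compared with each other. None of the 9 genes passed limma-voom with adjustment over all genes, and 0.0% of all genes did, while 1 of the 9 (Dab2) and 813 of all genes were below an unadjusted p of 0.05. Dab2 was 0.866-fold with VLDLsep relative to CHYLsep, a log2 difference of -0.21 ± 0.046 (SE, 95% interval -0.31 to -0.106, adjusted p = 0.508). It passed with DESeq2 (adjusted p = 0.0174), with the replicate block (0.0348) and without replicate 3 (0.0214), settings that called 24, 147 and 232 of all genes, and edgeR's quasi-likelihood test called 0 of the 9. Cltc was 1.07-fold, at a log2 difference of 0.099 (95% interval -0.0028 to 0.2, adjusted p = 0.783). Dab2 and Cltc were the members whose VLDLsep and CHYLsep libraries did not overlap, where 11.3% of all genes did not. For Ehd1 the difference was 0.05 on the log2 scale (95% interval -0.219 to 0.319), so a difference of up to 1.25-fold in favour of VLDLsep lay within it. The intervals of Cav2 (-0.267 to 0.0833), Clta (-0.205 to 0.0415), Cltb (-0.072 to 0.176), Dnm2 (-0.116 to 0.134), Flot1 (-0.221 to 0.274) and Flot2 (-0.148 to 0.113) all held 0. The ratios within libraries differed between the particles with a 2-sided exact permutation p of 0.2 for heavy to light chain, 0.2 for Cltb to Clta and 0.6 for Flot2 to Flot1.

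To compare levels between genes, cpm was divided by the length of the longest principal transcript in kilobases. In CTRL, Dab2 led at 288 ± 8.50 cpm per kb, followed by Clta at 218 ± 3.39, Cltc at 107 ± 2.67 and Dnm2 at 67.7 ± 2.00 cpm per kb (SD, n = 3). Cltb (33.3 ± 1.83), Ehd1 (29.1 ± 4.05), Cav2 (28.5 ± 1.37) and Flot2 (27.1 ± 0.958) came next, and each overlapped with its neighbour in this order. Flot1 was far lower at 4.86 ± 0.505 cpm per kb, and Cav1 was at 0. With VLDLsep the order changed at the top, to Clta at 191, Dab2 at 154 and Cltc at 147 cpm per kb, and Ehd1 at 61.0 cpm per kb rose past Cltb to overlap with Dnm2 at 71.0 cpm per kb. With CHYLsep the order was the same, with Clta at 202, Dab2 at 178 and Cltc at 137 cpm per kb and Ehd1 past Cltb and overlapping with Dnm2. With the length of all exons joined, an alternative added after seeing the data, Cltb moved to rank 8 and Flot2 to rank 5 in CTRL while the ranks of the other genes were kept.

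The wider endocytic machinery was taken from 7 lists with 96 genes in all, of which 79 were tested. With VLDLsep 25 rose and 14 fell (49.4%, where 35.6% of all genes changed), and with CHYLsep 16 rose and 11 fell (34.2%, against 25.7%). The VLDLsep counts include Sh3gl3 among the rises and Ehd2 among the falls, each admitted to the test only through the group where it was highest. The median log2 fold change over the lists was 0.05 and 0.03, against -0.00028 and 0.0013 over all genes. Nothing particular to the lists follows from these counts. The counts by list below stand against 17.8% of all genes higher and 17.9% lower with VLDLsep, and 12.7% and 13.0% with CHYLsep. All values below are limma-voom log2 fold changes with adjusted p.

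Of the early endosome list, which covers the Rab5 machinery and the sorting complexes that receive incoming vesicles, 8 of 17 genes rose with VLDLsep and 7 with CHYLsep, and none fell. Of all genes, 17.8% rose with VLDLsep and 12.7% with CHYLsep. The median log2 fold change of the list was 0.23 with VLDLsep and 0.14 with CHYLsep. Rabep1, an effector that binds active Rab5, rose by 0.67 (adjusted p = 8.16e-06) with VLDLsep and by 0.54 (6.23e-05) with CHYLsep. Stam2 and Hgs, partners in the sorting of ubiquitinated cargo, rose by 0.63 (4.4e-05) and 0.47 (8.23e-05) with VLDLsep. The other members that rose with VLDLsep, named after their values were seen, were Eea1, Rab5a, Rabgef1, Rab22a and Rbsn, at 0.23 to 0.42. Eea1, the tether that joins early endosomes, rose by 0.42 (2.34e-04) with VLDLsep and by 0.32 (0.00211) with CHYLsep, and Rbsn did not pass with CHYLsep (0.14, 0.0937).

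Of the vesicle scission and uncoating list, 6 of 12 tested genes rose and 2 fell with VLDLsep, and 3 rose and 1 fell with CHYLsep. The 6 include Sh3gl3, which entered the test only through its VLDLsep counts. Hspa8, the chaperone that strips the clathrin coat from vesicles and that serves protein folding in general, rose from 1626 to 2830 cpm with VLDLsep (0.80, adjusted p = 7.95e-06) and to 2402 cpm with CHYLsep (0.56, 1.37e-04). Snx18, a membrane-bending protein, fell by 0.45 (8.37e-04) with VLDLsep and by 0.39 (0.00302) with CHYLsep. Bin1, which senses curved membranes, rose by 0.28 (0.00609) and 0.28 (0.00754), and both calls were lost with scaling by library size (0.18 and 0.20, adjusted p = 0.065 and 0.0544). Sh3gl3, at 0.226 cpm in CTRL and 0.574 cpm with VLDLsep, had a value of 1.29 there (0.00845, and 0.0654 with DESeq2) and of 0.86 (0.0781) with CHYLsep.

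Among AP2 and pit assembly genes, 4 of 16 rose and 2 fell with VLDLsep, and 2 rose and 1 fell with CHYLsep. The AP2 subunit Ap2b1 rose by 0.25 (adjusted p = 0.00138) with VLDLsep and by 0.21 (0.00626) with CHYLsep, which became 0.16 and 0.13 with scaling by library size, the CHYLsep call being lost (0.0722). Necap2, which binds AP2, fell by 0.21 (0.00638) with VLDLsep and had a value of -0.13 with CHYLsep (0.0728, and 0.0296 with the replicate block). Itsn1, a scaffold of the pit, fell from 58.0 to 34.2 cpm with VLDLsep (-0.76, adjusted p = 2.31e-05) and to 36.4 cpm with CHYLsep (-0.68, 8.42e-05).

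Of the 10 tested cargo adaptors other than Dab2, 2 rose and 2 fell with each particle. Numbl, which like Dab2 carries a phosphotyrosine-binding domain, rose from a low level of 2.92 cpm to 7.41 cpm with VLDLsep (1.34, adjusted p = 8.31e-05) and 7.38 cpm with CHYLsep (1.32, 1.48e-04). Arrb2, the arrestin that links activated receptors to clathrin, fell by 0.47 (1.28e-04) and 0.33 (0.00186). Epn2 rose by 0.43 (0.0106) and 0.51 (0.00564), and Hip1 fell by 0.27 (0.00721) and 0.23 (0.0189). The Hip1 call with CHYLsep was lost without CTRL replicate 1 or 2 or without CHYLsep replicate 2 or 3 (0.0568 to 0.07).

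In the EHD and recycling list, 2 of 11 genes rose and 3 fell with VLDLsep, and 1 rose and 3 fell with CHYLsep. Besides Ehd4, the recycling GTPase Rab11b fell by 0.43 (adjusted p = 2.8e-04) and 0.29 (0.00522), and Rab10 rose by 0.48 (5.83e-05) and 0.47 (1.19e-04). In the list of clathrin-independent carriers and macropinocytosis, 2 of 11 rose and 4 fell with VLDLsep, and 1 rose and 4 fell with CHYLsep. The sorting nexin Snx5 fell by 0.24 (0.00635) and 0.20 (0.0229), the latter lost without CTRL replicate 3 or without CHYLsep replicate 1 or 2 (0.0643 to 0.0748). Arhgap10 rose by 0.49 (1.44e-05) and 0.39 (1.19e-04). Its relative Arhgap26, a GTPase-activating protein of clathrin-independent carriers, fell by 0.58 (0.00856) with VLDLsep and by 0.43 (0.0423) with CHYLsep, the latter lost in 9 of 18 alternatives.

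**Figure D5:**
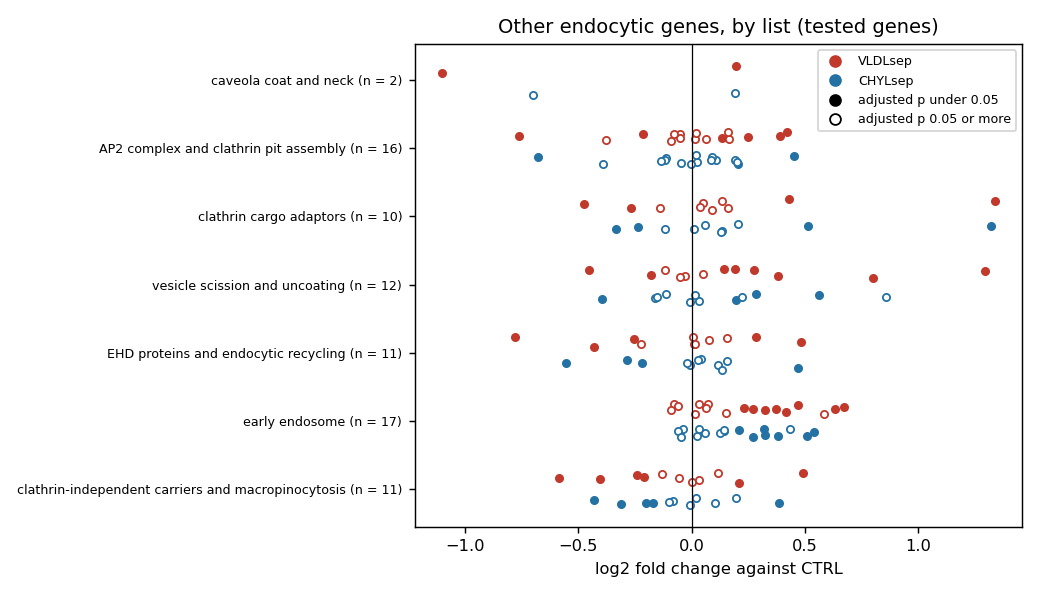
Log2 fold change against CTRL of the tested genes of 7 endocytic lists, 1 point per gene, for VLDLsep and CHYLsep, filled at an adjusted p below 0.05. In the early endosome row the filled points lie to the right of 0 for both particles, while the other rows with filled points for both particles have them on both sides.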

How the data were processed

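The authors quantified paired-end reads of total RNA libraries with Salmon 0.14.1 on the GENCODE M22 transcriptome (GRCm38.p6) and summed them to genes with tximport. The deposited table holds these estimated counts. The methods name scaling by length and library size, yet 58.3% of values above 10 were whole numbers. The unrounded values of 12637 genes, each above 10 counts in 3 or more of 9 libraries, were fitted in 1 limma-voom model (limma 3.58.1). The fit used TMM factors (edgeR 4.0.16) and Benjamini-Hochberg adjustment. Symbols, lengths and coordinates came from GENCODE M21, and 54346 of 54432 identifiers matched. The 10 genes and all lists were chosen with earlier results of these data known. From each list the 3 genes with the lowest adjusted p with VLDLsep were named, plus any with an adjusted p below 0.05 and an absolute log2 fold change of at least 0.5, and the 3 nearest profiles for each member past these limits. P-values measure the spread between pooled libraries. Replicates differed beyond counting noise (chi-square per degree of freedom 3.41 or more). Same-numbered VLDLsep and CTRL libraries deviated together (correlations 0.138, 0.132 and 0.293), but VLDLsep replicate 2 with CTRL replicate 1 gave 0.116. For CHYLsep and CTRL the lowest same-numbered value was 0.0684, below the 0.155 of CHYLsep replicate 2 with CTRL replicate 1. Replicate 3 deviated alike in all groups, with 0.338 for CHYLsep with CTRL and 0.357 for VLDLsep with CHYLsep. The values for replicates 1 and 2 do not settle whether the numbers pair the libraries. Alternatives included edgeR's quasi-likelihood test and DESeq2 1.42.0, both on rounded counts. The fit was tested on simulated data. A further list of marker genes is not reported here.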

Additional observations from a re-analysis of the deposited data

How the results depend on the processing

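With VLDLsep against CTRL, 3 to 5 members passed when 1 library or replicate 3 was left out (3 without VLDLsep replicate 2, where Clta and Flot1 were lost), and with CHYLsep 3 to 4. Between VLDLsep and CHYLsep, 0 to 1 passed. The 1 was Dab2, which passed without replicate 3, with DESeq2 and with the replicate block. The replicate block kept 5 and 4 members against CTRL and changed no other member's call. Under the block 47.9% and 39.2% of all genes passed, against 35.6% and 25.7% without it. Cltc, Dab2 and Ehd1 kept direction and call against CTRL under all 18 alternatives. Values that changed sign were near 0 and passed no test. Scaling by library size alone, under which the median of all genes was -0.0935 with VLDLsep and -0.0788 with CHYLsep, gave log2 fold changes of -0.033 and -0.071 for Cltb, -0.025 and -0.021 for Dnm2, -0.038 and -0.0074 for Flot2, and -0.0043 for Dnm2 between the particles. Cav2 with VLDLsep was 0.0018 with edgeR's quasi-likelihood test and 0.0031 with DESeq2. With a library left out, the log2 fold change ranged from -0.0635 to 0.081 for Cav2 with VLDLsep and from -0.026 to 0.051 for Cltb with CHYLsep. Between the particles it ranged from -0.042 to 0.044 for Dnm2, -0.036 to 0.12 for Flot1, -0.066 to 0.013 for Flot2 and -0.056 to 0.157 for Ehd1, and from -0.112 to 0.0026 for the Flot2 to Flot1 ratio. The cause of these shifts was not tested. Low or absent counts limit what can be said of Cav1, the cavins, Ehd2 and Sh3gl3, and with 3 libraries per group the ratio tests cannot pass 0.05.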
